A study of Danio rerio with 6 samples.

Results

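Brush border peptidases are ectoenzymes anchored in the microvilli of enterocytes, where they cut peptides from digested food into amino acids and very short peptides that transporters can take up. Each enzyme prefers certain bonds, so a set of them with different preferences is needed to take a peptide apart from its amino end, its carboxyl end and the middle. The genes described here were those whose symbol in a table pairing Ensembl gene IDs with names matched, ignoring case, 1 of 10 listed symbols. Of these, 7 symbols matched and gave 8 of the 35117 gene IDs, because MEP1B is the symbol of 2 of them. The 8 genes were ENPEP, dpp4, XPNPEP2, NAALAD2, naaladl1, DPEP1 and the MEP1B pair. The symbols anpepa, anpepb and mme were not matched, so no gene is counted under them. Genes with the symbol ANPEP, which was not a listed symbol, are outside the 8. They are described separately below, and none of them passed. Matching by symbol cannot tell whether any of them is anpepa or anpepb. The counts over the 8 genes therefore leave these ANPEP genes out. The matching used symbols alone, and all 8 passed the filter on low counts that kept 20979 genes for testing.

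The genes were measured by RNA sequencing in cells sorted from the intestine of wild type EK zebrafish larvae aged 6 days post fertilization. The lysosome rich enterocytes (LRE, n = 3 libraries) were positive for a cldn15la-GFP reporter and for Alexa Fluor 568 dextran, a fluorescent sugar polymer that had been gavaged into the gut at day 5, 24 hours before dissociation. The intestinal epithelial cells (IEC, n = 3 libraries) were positive for cldn15la-GFP and came from larvae gavaged in the same way. cldn15la encodes an intestinal claudin, so GFP marks the epithelium as a whole, and the labels do not state that dextran-positive cells were left out of the IEC gate. Whether the numbered libraries were separate pools of larvae is not stated either, so the p-values rest on a spread between libraries that may be technical. In these bulk samples, fewer cells of a type and less RNA per cell cannot be told apart.

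Totals lay between 42321698 and 53250871 counts in LRE and between 39590129 and 52824999 in IEC, which is deep enough for at least 103 reads of every one of the 8 genes in every library apart from 1 of the MEP1B pair. LRE 1 stood apart, with 19396 genes detected against 22974 to 25610 in the other 5 libraries, and with 43.0% of its counts in its 10 most abundant genes. Of the 10 rows of the list of LRE markers, 9 were higher in LRE and none lower. Of all tested genes, 2.30% were higher and 0.910% lower. The list was chosen with earlier results of these data known, so its count is no independent check of the sort. All 14 matched enterocyte markers had reads in both groups. Of these, 1 was lower in LRE (FABP2) and none higher.

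Most of these peptidases had far more mRNA in LRE than in IEC. Of the 8 genes, 6 were higher in LRE (2.30% of all tested genes were), 1 was lower (0.910% of all tested genes were) and 1 did not pass, by edgeR's quasi-likelihood test at an adjusted p (Benjamini-Hochberg, over all tested genes) under 0.05. The lower one, MEP1B ENSDARG00000037533, passed the filter on low counts through its IEC reads alone, so it could be called lower but not higher. The median log2 fold change was 3.17 over the 8 genes and -0.06 over all tested genes. The 8 genes were chosen with earlier results of these data known, so these counts and medians are no independent test of the family. The 3 LRE values lay above the 3 IEC values for 6 genes (13.0% of tested genes) and below them for 1 gene (13.8% of tested genes). A change beyond 2-fold (edgeR's TREAT test) passed for 4 genes, all higher (0.729% of tested genes). The summed abundance of the 8 genes was 2215 ± 578 CPM in LRE and 302 ± 92.1 CPM in IEC (mean ± SD, n = 3 each), where CPM are counts per 1000000 of a library total scaled by TMM, edgeR's trimmed mean of M-values. With the library number as a block in the edgeR fit, 6 genes were higher and none was lower (MEP1B ENSDARG00000037533, adjusted p = 0.0569). Without LRE 1 the counts of calls were the same as in the main fit, 6 higher and 1 lower. With any other single library left out, 4 to 6 genes were higher and none was lower, and with both libraries numbered 1 left out 4 were higher and none lower.

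**Figure D1:**
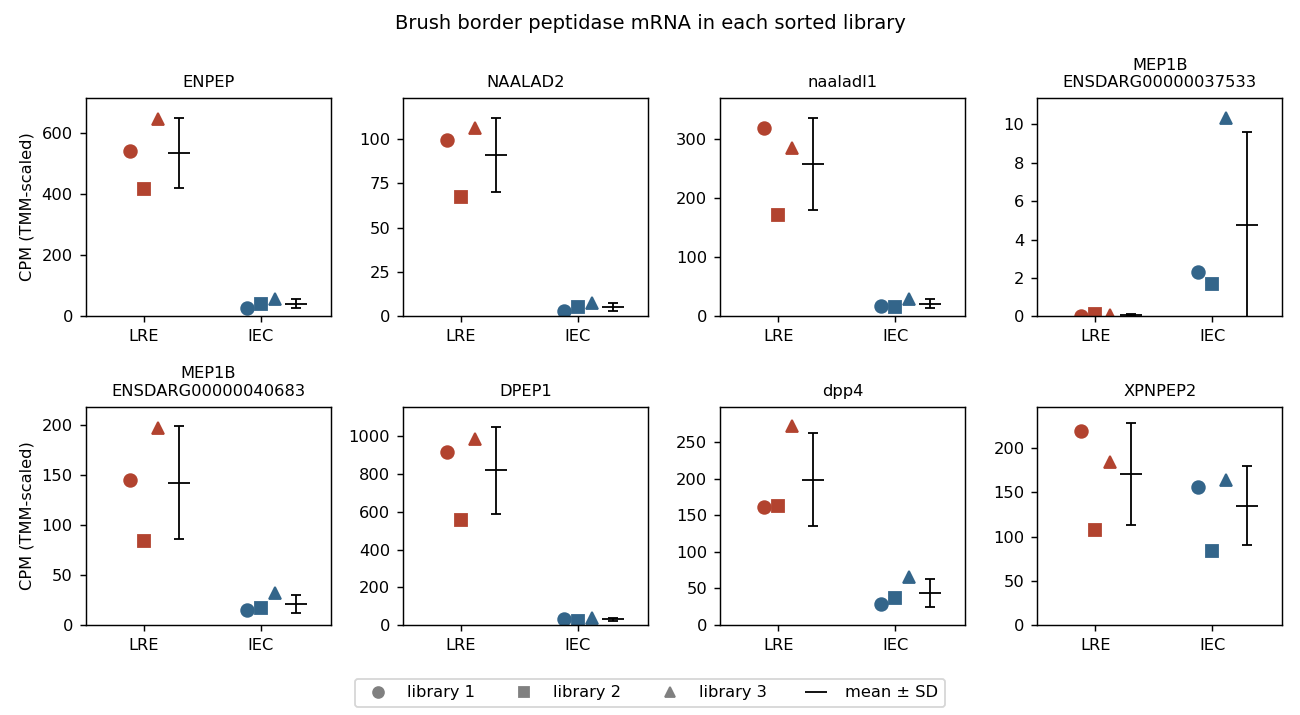
Abundance of the 8 peptidase genes in CPM (linear axes from 0, 1 panel per gene) in the LRE (red) and IEC (blue) libraries, with the symbol shape giving the library number and the black mark the mean ± SD of 3 libraries. In 6 panels the LRE libraries all sit above the IEC libraries, in the panel of MEP1B ENSDARG00000037533 they sit near 0, and in that of XPNPEP2 the groups overlap.

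The enzymes that act on the amino end of peptides fell into high, moderate and unresolved differences. ENPEP (ENSDARG00000057064) encodes aminopeptidase A, which in mammals removes acidic residues from the amino end. Its abundance was 541, 417 and 644 CPM in LRE 1, 2 and 3, against 27.7, 39.4 and 56.0 CPM in IEC 1, 2 and 3. Even the lowest LRE library held far more ENPEP mRNA than the highest IEC library. The log2 fold change of LRE over IEC was 3.70 ± 0.38 (SE, edgeR adjusted p = 0.00289), about 13.0-fold, and it passed in every alternative fit.

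The dpp4 gene (ENSDARG00000079420) encodes dipeptidyl peptidase 4, a serine protease that releases dipeptides ending in proline or alanine. It had 162, 163 and 272 CPM in LRE 1, 2 and 3, against 29.1, 36.6 and 66.1 CPM in IEC 1, 2 and 3. The groups did not overlap, and the third library was the highest in each of them. The log2 fold change was 2.18 ± 0.40 (SE, edgeR adjusted p = 0.0257), and a change beyond 2-fold did not pass (TREAT adjusted p = 0.136). The call ended without LRE 2 (edgeR adjusted p = 0.0549), LRE 3 (0.0926), IEC 1 (0.0772) or IEC 2 (0.110), without both libraries numbered 1 (0.0828), and with scaling by library totals alone (0.193); over all alternatives the adjusted p ran from 1.2e-05 to 0.193.

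XPNPEP2 (ENSDARG00000026017) encodes membrane-bound aminopeptidase P, which removes a first residue that is followed by proline. Its abundance was 219.7, 107 and 184 CPM in LRE 1, 2 and 3, against 157, 83.4 and 164 CPM in IEC 1, 2 and 3. The groups overlapped, and library 2 was the lowest in each of them. The log2 fold change was 0.34 with a 95% interval of -0.52 to 1.20 (edgeR adjusted p = 0.719), so a difference of either sign remained within the interval. Both dpp4 and XPNPEP2 handle bonds next to proline, and their ratio was compared within libraries, where scaling plays no part, a comparison chosen after the values were seen. The log2 ratio of dpp4 to XPNPEP2 (on CPM + 0.5) was -0.44, 0.60 and 0.56 in LRE 1, 2 and 3, against -2.41, -1.18 and -1.30 in IEC 1, 2 and 3. The groups did not overlap, and the means differed by 1.87 (two-sided exact permutation test, p = 0.10, the smallest that 3 against 3 libraries allow; 0.15 adjusted over the 3 ratios compared). Between libraries of equal number the difference was 1.97, 1.77 and 1.87 (two-sided exact paired permutation test, p = 0.25, the smallest that 3 pairs allow).

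The relatives of glutamate carboxypeptidase were both higher in LRE. NAALAD2 (ENSDARG00000021383) encodes an enzyme that in mammals releases glutamate from the carboxyl end of peptides, and naaladl1 (ENSDARG00000020952) encodes a related peptidase known from the mammalian ileum. NAALAD2 had 99.4, 67.4 and 106 CPM in LRE 1, 2 and 3, against 3.23, 5.16 and 7.61 CPM in IEC 1, 2 and 3. Its log2 fold change was 4.09 ± 0.40 (SE, edgeR adjusted p = 0.00254). Every LRE library lay above every IEC library. For naaladl1 the values were 319.6, 171 and 284 CPM in LRE 1, 2 and 3, against 17.9, 16.4 and 29.5 CPM in IEC 1, 2 and 3. Its log2 fold change was 3.60 ± 0.39 (SE, edgeR adjusted p = 0.00317), and both genes passed in every alternative fit. The log2 ratio of NAALAD2 to naaladl1 within a library was -1.48 ± 0.18 in LRE and -1.92 ± 0.37 in IEC (mean ± SD, n = 3 each; two-sided exact permutation test, p = 0.20, adjusted p = 0.20), and the groups overlapped. The difference was 0.45, and between libraries of equal number it was 0.63, 0.24 and 0.47, higher in LRE in all 3 pairs (two-sided exact paired permutation test, p = 0.25, the smallest that 3 pairs allow).

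DPEP1 (ENSDARG00000068181) encodes membrane dipeptidase 1, a zinc enzyme tethered by a lipid anchor that splits dipeptides and is best known from mammalian kidney. It had the highest log2 fold change of the 8 genes. Its abundance was 916, 557 and 988 CPM in LRE 1, 2 and 3, against 30.8, 21.6 and 37.5 CPM in IEC 1, 2 and 3. The lowest LRE value was far above the highest IEC value. The log2 fold change was 4.77 ± 0.41 (SE, edgeR adjusted p = 0.00201), about 27.4-fold, a change beyond 2-fold passed (TREAT adjusted p = 0.00336), and the call held in every alternative fit. Between libraries of equal number the log2 ratio was 4.87, 4.66 and 4.70.

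The MEP1B pair went in opposite directions in the main fit. MEP1B encodes the beta subunit of meprin, a metalloendopeptidase of the astacin family that cuts within peptide chains. The gene ENSDARG00000040683 had 145, 84.5 and 197 CPM in LRE 1, 2 and 3, against 14.8, 17.5 and 31.6 CPM in IEC 1, 2 and 3. All LRE values lay above all IEC values, with a log2 fold change of 2.74 ± 0.43 (SE, edgeR adjusted p = 0.0148). That call ended without LRE 3 (edgeR adjusted p = 0.0533), IEC 1 (0.0615) or IEC 2 (0.0709), without both libraries numbered 1 (0.0872), and with scaling by library totals alone (0.0988); over all alternatives the adjusted p ran from 1.1e-07 to 0.0988.

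The other MEP1B gene, ENSDARG00000037533, was nearly undetected in LRE. It had 0, 6 and 2 reads in LRE 1, 2 and 3, against 73, 118 and 624 reads in IEC 1, 2 and 3. Only the IEC reads carried this gene past the filter on low counts, so its direction was fixed by the filter. The 0 reads of LRE 1 allow up to 0.103 CPM (3 counts), while the IEC values were 2.29, 1.70 and 10.3 CPM, so IEC 3 held most of the reads. Summed over libraries, 8 reads in LRE against 815 in IEC put the LRE level at 1.26% of the IEC level (95% exact interval 0.543 to 2.50%, counting error only). That percentage depended on single libraries, at 3.38% without IEC 3 and 0.527% without LRE 2, a comparison added after the values were seen. The fitted log2 fold change was -6.30 ± 1.31 (SE, edgeR adjusted p = 0.0410), a value that depends on how counts near 0 are handled. The call depended on the fit: with the replicate number as a block the adjusted p was 0.0569, with limma voom 0.144 and with library totals alone 0.0608. It also ended without LRE 2 (log2 fold change -7.44, edgeR adjusted p = 0.0769), LRE 3 (0.142), IEC 1 (0.0864), IEC 2 (0.0742) or IEC 3 (-5.12, adjusted p = 0.224) and without both libraries numbered 1 (0.0827), within a range over all alternatives of 9.5e-07 to 0.224.

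Within a library the log2 ratio of MEP1B ENSDARG00000040683 to ENSDARG00000037533 (on CPM + 0.5) was 8.18, 7.102 and 8.51 in LRE 1, 2 and 3, against 2.45, 3.03 and 1.57 in IEC 1, 2 and 3. The groups did not overlap (two-sided exact permutation test, p = 0.10, the smallest possible; adjusted p = 0.15). Between libraries of equal number, a two-sided exact paired permutation test gave p = 0.25, the smallest that 3 pairs allow. The lower gene passed the filter through its IEC reads alone, so the direction of this ratio is not independent of the filter. Neither test is therefore separate support for that direction. With the lower gene at 0 to 0.119 CPM in LRE, the LRE ratios are set largely by the added 0.5 CPM and give no estimate of size. ENSDARG00000040683 had more reads than its namesake in all 6 libraries; transcript lengths were not used, so this compares reads, not transcripts. Reads shared by near-identical genes may be split or dropped, and how counting treated them is not given in the sources used here.

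**Figure D2:**
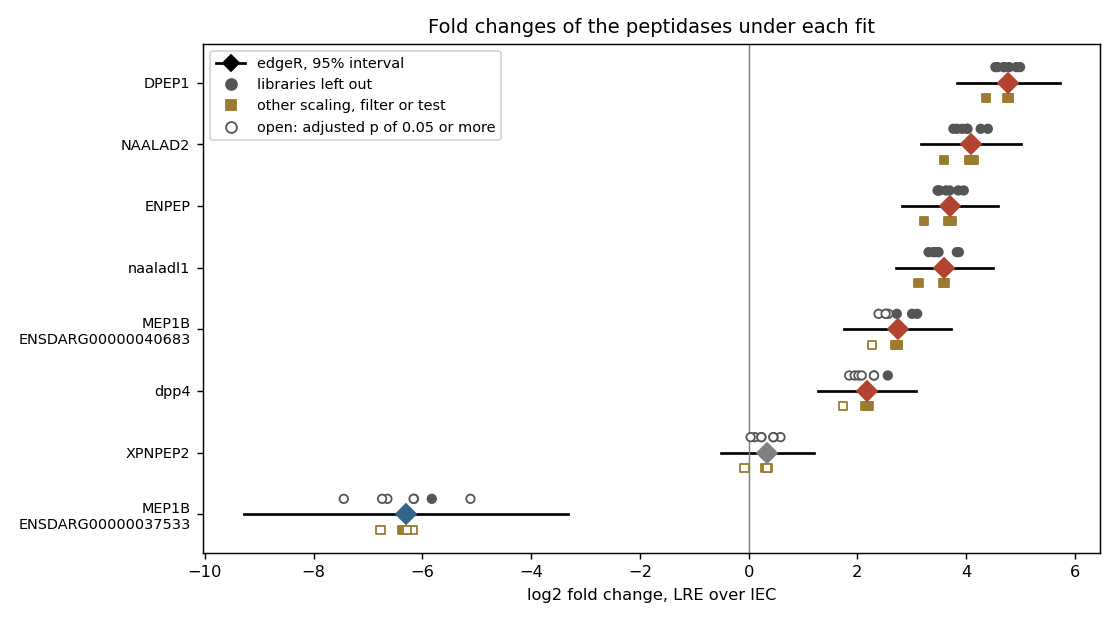
Log2 fold change of LRE over IEC for each peptidase gene (diamonds, with bars for the 95% interval of the edgeR fit; red higher, blue lower, grey did not pass). Circles above each diamond are fits with libraries left out and squares below it fits with another scaling, filter or test, open where the adjusted p was 0.05 or more; ENPEP, NAALAD2, naaladl1 and DPEP1 have filled marks throughout, whereas MEP1B, dpp4 and XPNPEP2 have open ones.

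Over the 6 libraries the 15 pairs among the 6 higher genes correlated at 0.953 to 0.9996 (Pearson's r of log2(CPM + 0.5), a description dominated by the gap between the groups, by which these genes were picked). XPNPEP2 correlated with them at 0.409 to 0.526. Within LRE, library 2 was the lowest for 5 of the 6 higher genes, dpp4 being the exception, and library 3 was the highest for 5 of the 6, naaladl1 being the exception. Within IEC, library 3 was the highest for all 8 genes, whereas the lowest was library 1 for 4 of the 6 higher genes and library 2 for the other 2, naaladl1 and DPEP1. The log2 ratios between libraries of equal number ran from 2.03 to 4.87 over the 6 higher genes.

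The genes with a symbol whose abundance followed each peptidase most closely, among 8624 genes with a mean of at least 10 CPM, were named by the largest Pearson's r over the 6 libraries. They were acot15 for ENPEP (r = 0.999), the cystine transporter light chain SLC7A9 for NAALAD2 (0.999), DENND3 for naaladl1 (0.999), the cytochrome P450 gene cyp2k20 for DPEP1 (0.999), and TDO2, which opens the ring of tryptophan, for dpp4 (0.999). For MEP1B ENSDARG00000040683 the closest was si:ch73-103l1.2 (r = 0.997), for MEP1B ENSDARG00000037533 it was znf292a (0.995) and for XPNPEP2 it was TM2D2 (0.980). With 6 libraries in 2 groups, many genes reach such values.

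DPEP1 took the largest share of the peptidase reads in every LRE library, and XPNPEP2 in every IEC library. DPEP1 took 36.9% ± 1.29 of the reads of the 8 genes in LRE and 9.99% ± 0.819 in IEC (mean ± SD, n = 3 each). ENPEP took 24.4% ± 2.07 in LRE and 13.8% ± 3.98 in IEC. XPNPEP2 took 7.62% ± 1.32 in LRE and 44.6% ± 9.52 in IEC. The LRE and IEC shares of these 3 genes did not overlap, whereas those of dpp4 (9.09% ± 2.04 in LRE, 14.4% ± 3.55 in IEC) and MEP1B ENSDARG00000040683 (6.26% ± 1.010 in LRE, 6.99% ± 1.52 in IEC) did. These are shares of a closed total, so that a rise in some genes lowers the shares of the others. A lower share is therefore not by itself a lower abundance: XPNPEP2 overlapped between the groups in CPM, and dpp4 was higher in LRE.

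**Figure D3:**
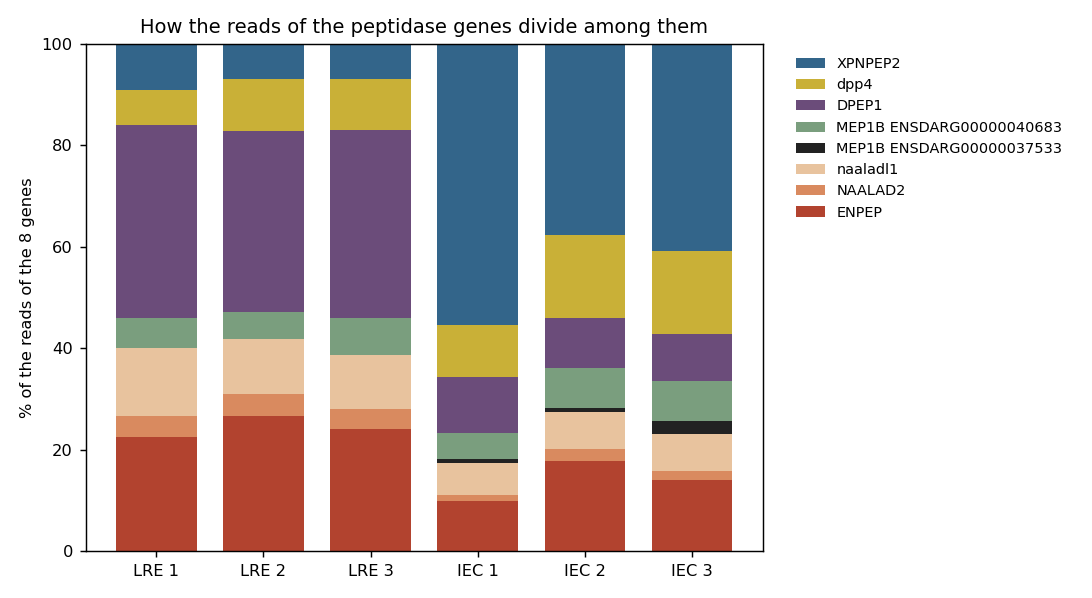
Percent of the reads of the 8 peptidase genes that each gene took in each library, stacked to 100, with the 3 LRE libraries on the left and the 3 IEC libraries on the right. DPEP1 and ENPEP fill most of each LRE bar, and XPNPEP2 is the widest band of each IEC bar, where it took 37.6 to 55.4%.

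The IEC libraries also held mRNA of the higher peptidases. For the 6 higher peptidases, the IEC mean was 3.65% (DPEP1) to 22.1% (dpp4) of the LRE mean. For the 9 higher rows of the LRE marker list it was 0.806% (CUBN) to 7.32% (FABP6). CUBN encodes the endocytic receptor cubilin and FABP6 an ileal bile acid binding protein. Of the higher peptidases, only DPEP1 and NAALAD2 (5.85%) lay within the range of the markers. ENPEP (7.68%), naaladl1 (8.24%), MEP1B ENSDARG00000040683 and dpp4 lay above it. Both sets were picked for being higher in LRE. The summed LRE markers were 1648, 757 and 1269 CPM in IEC 1, 2 and 3, highest in IEC 1, whereas the peptidases were highest in IEC 3. The part of any dextran-positive cells in the IEC values was not tested.

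Summed markers of several other cell types did not overlap between the sorts. Of all 20979 tested genes, 3562 had an unadjusted edgeR p under 0.05, 2.30% were higher and 0.910% lower. The LRE values lay above the IEC values for 13.0% of tested genes and below them for 13.8%. These shares are the base for the counts below. The 7 rows of fibroblast and smooth muscle markers summed to 2813 to 3844 CPM in LRE and 971 to 1614 CPM in IEC. None of these rows passed the edgeR test, although 4 had an unadjusted p under 0.05, and none was at 0 in all libraries of a group; their part in the higher peptidase levels was not tested. The 4 neuron markers summed to 122 to 183 CPM in LRE and 60.5 to 90.0 CPM in IEC; with edgeR none passed, and 2 had an unadjusted p under 0.05. The 10 enteroendocrine markers summed to 161 to 803 CPM in LRE and 2563 to 4740 CPM in IEC. Of these, 2 were lower and none higher, the lower ones being the hormone genes gip and ghrl. All 10 had an unadjusted p under 0.05, 9 lay below IEC in every LRE library, the median log2 fold change was -3.07, and none was at 0 in all libraries of a group. This moved with the lower MEP1B gene, although the enteroendocrine sum was highest in IEC 1 (4740 CPM) and that gene in IEC 3; its part was not tested. Of 5 best4 and ionocyte-like markers, TACR2 was lower (edgeR adjusted p = 0.0373) and none higher. Their median log2 fold change was -1.67, and 4 had an unadjusted p under 0.05. Their sums overlapped, at 144 to 202 CPM in LRE and 162 to 454 CPM in IEC, and their part was not tested either. Goblet cell, leukocyte and enterocyte markers had lower sums in LRE, at 385 to 960, 99.7 to 154 and 6275 to 7072 CPM, against 1124 to 2434, 186 to 474 and 7735 to 10648 CPM in IEC. The goblet marker AGR2 alone had 768, 691 and 179 CPM in LRE, against 2214, 902 and 952 CPM in IEC. Another, galnt6, lay above IEC in every LRE library. No goblet or leukocyte marker passed. Of 14 enterocyte markers, FABP2 was lower (log2 fold change -2.21, edgeR adjusted p = 0.0304). In every LRE library 4 of them lay below IEC (13.8% of tested genes), among them cldn15la, the reporter gene, and none above (13.0%). The cldn15la gene did not pass (log2 fold change -0.44, edgeR adjusted p = 0.640). Its highest LRE value was 3011 CPM and its lowest IEC value 3036 CPM. The sums do not describe each list as a whole. Hepatocyte markers (12 tested) had a median log2 fold change of 0.92 and muscle markers (3 tested) of 1.18; with edgeR none of either passed, while 5 and 2 had an unadjusted p under 0.05. Their sums overlapped, at 1056 to 2274 CPM for hepatocyte and 410 to 1132 CPM for muscle markers in LRE, against 670 to 1478 and 157 to 536 CPM in IEC. For both lists the LRE library was above the IEC library of the same number in all 3 pairs, and their part in the higher peptidase levels was not tested. Exocrine pancreas markers, which include the luminal proteases, overlapped, at 485 to 7002 CPM in LRE and 2061 to 6007 CPM in IEC. Kidney proximal tubule markers (2 tested, CDH17 of them also an enterocyte marker) overlapped as well, at 343 to 398 CPM in LRE and 289 to 448 CPM in IEC.

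Among further peptidases of the membrane, ggt1b was higher in LRE. It was 1 of 15 tested genes on a list of them, none of which was lower with edgeR (2.30% of all tested genes were higher and 0.910% lower), and the median log2 fold change was 0.27. An unadjusted p under 0.05 was reached by 3 of the 15 (3562 of all 20979 tested genes). The same number was called by limma voom as by edgeR, and DESeq2 called 1 higher and 1 lower (1245 and 819 of all tested genes). The ggt1b gene encodes a gamma-glutamyl transferase that acts on glutathione at the cell surface. It had 112, 140.4 and 255 CPM in LRE 1, 2 and 3, against 5.40, 18.2 and 23.8 CPM in IEC 1, 2 and 3 (log2 fold change 3.42 ± 0.58 SE, edgeR adjusted p = 0.0201). Its call ended without LRE 3, IEC 2 or IEC 3 and with library totals alone (adjusted p = 0.0633, 0.0757, 0.0535 and 0.107). The meprin alpha genes mep1a.1 and mep1a.2 gave log2 fold changes of 0.87 and 0.27, and neither passed.

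Aminopeptidase N, which removes neutral residues from the amino end, is represented by 3 genes with the symbol ANPEP, picked out after their values were seen. None passed. ANPEP ENSDARG00000103878 had 739.6, 721 and 975 CPM in LRE 1, 2 and 3, against 459, 805 and 831 CPM in IEC 1, 2 and 3, with a log2 fold change of 0.22 (95% interval -0.59 to 1.02). ANPEP ENSDARG00000097285 had 87.4, 28.8 and 18.1 CPM in LRE 1, 2 and 3, against 82.7, 217 and 131 CPM in IEC 1, 2 and 3. LRE 1 overlapped IEC there, and the log2 fold change was -1.68 ± 0.60 (SE, edgeR adjusted p = 0.196). It passed without LRE 1 (-2.62, adjusted p = 0.0404), without both libraries numbered 1 (-2.90, adjusted p = 0.0403) and with DESeq2 (-1.69, adjusted p = 0.0445), while over all alternatives the adjusted p reached 0.409. ANPEP ENSDARG00000036809 averaged 7.84 ± 5.68 CPM in LRE and 2.98 ± 0.692 CPM in IEC (mean ± SD, n = 3 each).

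**Figure D4:**
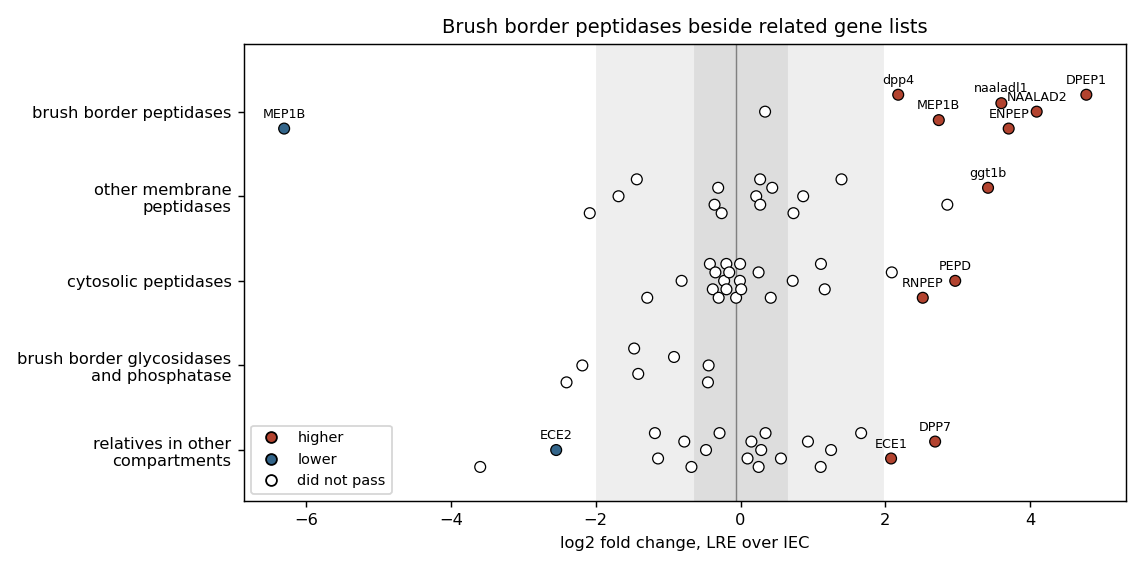
Log2 fold change of LRE over IEC for each tested gene of the brush border peptidases and of 4 related lists (red higher, blue lower, white did not pass; vertical scatter within a list has no meaning). The grey bands hold the middle 50% and 90% of all 20979 tested genes and the line their median of -0.06; 6 brush border peptidases lie to the right of the wider band, which ends at 1.96.

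Among peptidases listed here as cytosolic, PEPD and RNPEP were higher in LRE. Of 22 tested genes on that list, these 2 were higher and none lower with edgeR (2.30% and 0.910% of all tested genes were). The median log2 fold change was -0.03. The LRE values lay above the IEC values for 6 of the 22 and below them for 1 (13.0% and 13.8% of tested genes). The sums did not overlap, at 1529 to 1915 CPM in LRE and 901 to 985 CPM in IEC. PEPD alone averaged 642 CPM in LRE and 82.3 CPM in IEC, so these sums do not describe the list as a whole. An unadjusted p under 0.05 was reached by 7 (3562 of all 20979 tested genes). None of the 22 was lower with DESeq2 (5 higher, against 1245 of all tested genes) or limma voom (3 higher, against 606). PEPD, the prolidase that splits dipeptides ending in proline, had 802, 469 and 656 CPM in LRE 1, 2 and 3, against 81.3, 65.1 and 100.5 CPM in IEC 1, 2 and 3. Its log2 fold change was 2.96 ± 0.35 (SE, edgeR adjusted p = 0.00484), and it passed in every alternative fit. RNPEP, aminopeptidase B, which prefers basic residues, averaged 31.0 ± 9.45 CPM in LRE and 5.41 ± 1.74 CPM in IEC (log2 fold change 2.52, edgeR adjusted p = 0.0146), a call that ended without IEC 3 (0.0712) and with library totals alone (0.107). The aminopeptidase P of the cytosol, XPNPEP1, had a log2 fold change of 1.11 ± 0.28 (SE) that did not pass (edgeR adjusted p = 0.0754).

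Of 7 tested genes on a list of brush border glycosidases and phosphatases, none was higher or lower with edgeR (2.30% and 0.910% of all tested genes were). Only 5 of the 11 listed symbols matched, and 1 of them, ENPP7, encodes neither kind of enzyme. With edgeR 1 had an unadjusted p under 0.05 (3562 of all 20979 tested genes), limma voom called none and DESeq2 called 1 lower (819 of all tested genes). Their log2 fold changes ran from -2.40 (alp3) to -0.44 (ENPP7 ENSDARG00000053525), with a median of -1.41. Some of these genes had few reads, so the range and the median are uncertain. In LRE 1, 2 and 3, TREH had 0, 11 and 25 reads and LCT ENSDARG00000092404 had 0, 4 and 26. ENPP7 ENSDARG00000053525 had 3, 3 and 39 there, with a 95% interval of -3.79 to 2.91 for its log2 fold change. The LRE values lay above the IEC values for none of the 7 and below them for 2 (13.0% and 13.8% of tested genes). Their sums overlapped, at 12.6 to 30.7 CPM in LRE and 26.7 to 64.9 CPM in IEC. Of 20 tested relatives of the peptidases in other compartments, 2 were higher and 1 lower with edgeR (2.30% and 0.910% of all tested genes were), with a median log2 fold change of 0.20. Their sums did not overlap, at 484 to 737 CPM in LRE and 241 to 436 CPM in IEC. DPP7 alone had 326, 178 and 445 CPM in LRE, against 64.8, 35.7 and 47.0 CPM in IEC. The LRE values lay above the IEC values for 3 of the 20 and below them for 3 (13.0% and 13.8% of tested genes). The sums therefore do not describe the list as a whole. The higher ones were DPP7, a dipeptidyl peptidase of intracellular vesicles (log2 fold change 2.69, edgeR adjusted p = 0.0143), and ECE1, an endothelin-converting enzyme related to neprilysin (2.08, adjusted p = 0.0170). The lower one was ECE2, a close relative of ECE1 (-2.54, adjusted p = 0.0305). Leaving out certain single libraries ended each of these 3 calls (edgeR adjusted p up to 0.0826 for DPP7, 0.0682 for ECE1 and 0.110 for ECE2). Library totals alone ended those of ECE1 (adjusted p = 0.192) and ECE2 (0.0600), and leaving out both libraries numbered 1 those of DPP7 (0.0630) and ECE2 (0.0982).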

How the data were processed

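The deposited values were whole-number counts per Ensembl gene ID, 1 file per library. The authors aligned reads with HISAT2 to GRCz10 and counted them with HTSeq, per the submitters' processing notes; neither their versions, the annotation release, nor the counting modes for strand and overlap were given in the sources used here. Per the labels' protocols, libraries came from an ultra low input kit, whose amplification can widen the spread between libraries.

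LRE and IEC counts were set against each other in edgeR's quasi-likelihood framework (edgeR 4.0.16, R 4.3.3; TMM factors from 0.692 to 1.40, filterByExpr at minimum count 10 and minimum total 15, no covariate), with SE as the log2 fold change over the root of F. Alternatives were RLE and upper-quartile factors, library totals alone, no filter, a filter of 1 CPM in at least 3 libraries, limma voom (3.58.1), DESeq2 1.42.0, the replicate number as a block, and libraries left out. Libraries of equal number deviated together from their group means (Pearson's r across genes 0.268, 0.332 and 0.258). For unequal numbers r was -0.232 to -0.0412. Deviations within a group sum to 0, so positive values for equal numbers pull the others below 0. The negative values are therefore no separate contrast, and genes are not independent. By this check of the data libraries of equal number appear paired, which the labels do not state. The main fit ignores such a pairing, and the fit with the block allows for it. Values given are from the fit without the block unless the block is named. With the block, 789 genes were higher and 367 lower, against 483 and 191 without it.

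The members, the lists and the alternatives were chosen with earlier results of these data known. Named genes were all 8 members, up to 3 passing genes with the smallest p from each related list, and the gene most like each member; any other gene named was picked after its values were seen. The planned ratio of anpepa to anpepb was not computed, since neither symbol was matched. Lists were matched by symbol, ignoring case. No coordinates, transcript lengths or sequences were used.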

Additional observations from a re-analysis of the deposited data

How the results depend on the processing

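The calls of ENPEP, NAALAD2, naaladl1 and DPEP1 held in all 15 alternatives, and no gene called in the main comparison was called in the opposite direction in any of them. Among the 8 peptidases, the number lower was 0 with library totals alone, limma voom, the replicate block, and both libraries numbered 1 left out, and 0 to 1 with single libraries left out; the number higher was 4 to 6 with single libraries left out. With library totals alone the summed peptidase abundance had a log2 ratio of 2.44 in place of 2.87, XPNPEP2 gave a log2 fold change of -0.0754 and ANPEP ENSDARG00000103878 of -0.24 (-0.0152 to 0.327 with single libraries left out); under that scaling the median of all genes was -0.46 in place of -0.06, and 42.9% of calls were then higher in place of 71.7% (60.3% with DESeq2). Over all genes, 137 were higher with library totals alone, 1245 with DESeq2, 789 with the replicate block and 251 with both libraries numbered 1 left out. Lower genes numbered 819 with DESeq2, 290 with limma voom and 367 with the replicate block. With single libraries left out, 146 to 419 were higher and 28 to 261 lower. The replicate block ended 1 call among the 8 peptidases, that of MEP1B ENSDARG00000037533, and no other. The differences in log2 ratio ran from 5.10 to 6.00 for the MEP1B pair, where the added 0.5 CPM bounds the LRE ratios and the range says nothing of stability, 0.26 to 0.62 for NAALAD2 over naaladl1 and 1.48 to 2.21 for dpp4 over XPNPEP2 with libraries left out. The cause of these shifts was not tested.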
